A study of Mus musculus with 21 samples.

Results

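The comparison is of 3 libraries from OT-I T cells co-cultured with melanoma cells and not restimulated (OT-I acute) against 3 libraries from C57BL/6 T cells cultured with vehicle and not restimulated (vehicle acute). They are 6 of the 21 libraries of a study of T cell stimulation, and their columns were taken from the deposited table by name. Genes with RPKM, a read number divided by gene length and by the library's depth, of 1 or more in at least 3 of the 6 libraries were tested, which kept 11749 of 13202.

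Vehicle acute cells were polyclonal CD8+ T cells of the strain C57BL/6, obtained by untouched (negative) selection from inguinal lymph nodes and spleen. They received plate-bound anti-CD3 and anti-CD28 for 48 h and then no further anti-CD3. What the vehicle was is not given in the labels. OT-I acute cells carry a transgenic T cell receptor (TCR) for a peptide of ovalbumin. They were activated with that peptide and then kept without it beside B16-F10 cells, a mouse melanoma line, whose MHC class I had been raised with interferon-γ (1 ng/mL). All cultures held interleukin 2, were renewed every 48 h and were harvested for RNA 8 days after the first stimulation. The age and sex of the mice are not given in the labels, nor is a step that removed melanoma cells before RNA extraction.

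A further 3 groups serve for reading values side by side. OT-I chronic cells were co-cultured with the same melanoma cells in the presence of the peptide, vehicle chronic cells received anti-CD3 every 48 h, and polyclonal acute cells were C57BL/6 cells of a separate experiment kept without melanoma cells and without further anti-CD3. Another 2 groups enter the fit and the limits on co-culture genes: polyclonal chronic cells, which received anti-CD3 every 48 h, and cells given anti-CD3 every 48 h with N-acetylcysteine, an antioxidant, at 10 mM from 48 h on. These too are C57BL/6 CD8+ T cells without melanoma cells. Each group has n = 3. OT-I and vehicle libraries differ at once in TCR, way of activation, presence of melanoma cells and experiment, so these cannot be told apart. The labels do not say that the 3 libraries of a group came from separate cultures or mice, so the p-values speak of the spread between these libraries alone, and that spread may be technical.

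A melanoma cell derives from the pigment lineage, in which the transcription factor MITF drives the enzymes that make melanin inside a lysosome-related organelle, the melanosome. Interferon-γ acts through a receptor-bound kinase pathway that turns on antigen presentation, guanylate-binding GTPases and chemokines that recruit T cells. The integrated stress response slows translation and raises the factor ATF4, which turns on amino acid supply genes and, when the stress lasts, the factor CHOP (gene Ddit3). An activated CD8+ T cell without further TCR signal can slow its cycling and move toward a memory state. TCR signals induce the NR4A factors and costimulatory and inhibitory receptors.

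Depth was 24142636, 19143281 and 13121180 reads in OT-I acute libraries 1 to 3 and 16833521, 14696045 and 17214432 reads in vehicle acute libraries 1 to 3. Pearson r across genes was 0.987 to 0.996 within OT-I acute and 0.997 to 0.998 within vehicle acute, and no pair was within sampling noise. Xist, the RNA of the inactive X chromosome in female cells, was at 0.00694, 0.0408 and 0.234 RPKM in OT-I acute and at 66.5, 62.2 and 84.3 RPKM in vehicle acute libraries. The Y-linked gene Eif2s3y was at 22.5, 21 and 19.2 RPKM in OT-I acute libraries and had no read in vehicle acute libraries. Y-linked Ddx3y was at 12.5, 11.4 and 12.4 RPKM in OT-I acute libraries and likewise had no read in vehicle acute libraries. The 2 groups are therefore apart in sex-linked RNA as well, and sex and system cannot be told apart.

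Of the 11749 genes, 5668 were higher in OT-I acute (48.2% of those tested) and 3848 were lower (32.8%) by limma with Benjamini-Hochberg adjusted p under 0.05. At 2-fold or more, 2348 were higher (20%) and 773 lower (6.58%). The libraries of the groups did not overlap for 5621 genes on the higher side (47.8%) and 3785 on the lower side (32.2%). The median log2 difference over all genes was 0.15. These counts depend on what is held equal: with each library set to a common median, 4384 genes were higher and 5143 lower (median -0.07), and with the T cell identity genes held equal, 9078 were higher and 1245 lower (median 0.73). All log2 differences below are OT-I acute minus vehicle acute on log2(RPKM + 1), a scale on which low genes appear to differ less than they do. All adjusted p values come from limma.

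RNA of the melanocyte pigment genes was present in all 3 OT-I acute libraries, while most of these genes were at or near 0 in vehicle acute libraries. Ednrb is not in the table. All 18 others passed the filter and were higher, with a median log2 difference of 6.35 against 0.15 over all genes (8.39 with the 7 genes that had no vehicle acute read at their lower bound). Of the 18, 14 were below 1 RPKM in every vehicle acute library, so they passed the filter through OT-I acute libraries alone and could be called in no other direction. As markers of melanoma cells they belong to the check of the label: the 18 summed to 8548, 8868 and 8619.6 RPKM in OT-I acute and to 12.6, 13.6 and 13.6 RPKM in vehicle acute libraries, where 10, 10 and 11 of them had no read. In bulk libraries, fewer cells of a type and less RNA per cell cannot be told apart, so the share of melanoma cells is not given by these values.

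The promoters of 3 pigment enzyme genes are shown because they hold the letters TCATGTG, the M-box form of the E-box that MITF is known to bind. The sequences are from RefSeq on GRCm38.p6, each a window of 120 bases upstream of the gene's start, 5′ to 3′ on the gene's strand. Capitals mark TCATGTG or its reverse complement, which occurs in Dct beside TCATGTG itself.
Tyrp1: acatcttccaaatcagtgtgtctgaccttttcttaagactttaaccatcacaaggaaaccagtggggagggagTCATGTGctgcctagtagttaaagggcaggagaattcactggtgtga
Dct: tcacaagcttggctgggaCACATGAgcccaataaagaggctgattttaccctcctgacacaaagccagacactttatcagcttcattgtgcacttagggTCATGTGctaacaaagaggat
Tyr: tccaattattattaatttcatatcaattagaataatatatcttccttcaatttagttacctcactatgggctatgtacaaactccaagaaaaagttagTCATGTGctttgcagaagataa
These windows lie at chr4:80834093-80834212 on the plus strand (Tyrp1), chr14:118052377-118052496 on the minus strand (Dct) and chr7:87493513-87493632 on the minus strand (Tyr). RefSeq promoters were matched for 11 of the 18 genes (15 promoters). On both strands of the 250 bases before the start, 7 of the 15 promoters held the motif (46.7%), against 3.25% of all 32851 promoters. The 7 genes were Dct, Mc1r, Slc24a5, Trpm1, Tspan10, Tyr and Tyrp1. A match is a description of letters and not a binding site.

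Among the enzymes of melanin synthesis, Tyrp1 (tyrosinase-related protein 1) was at 2259, 2202 and 2382 RPKM in OT-I acute libraries and had no read in any vehicle acute library. Against a floor of 3 reads over the 3 vehicle acute libraries, Tyrp1 was at least 102105-fold higher. Dct, the dopachrome tautomerase, was at 1506, 1589.7 and 1464 RPKM with no read in vehicle acute libraries (at least 55889-fold higher). Tyrosinase itself is the rate-limiting enzyme of the pathway and had a lower level than both partners. Tyr stood at 78.4, 74.5 and 82.1 RPKM and was also without a read in vehicle acute libraries (at least 7690-fold higher).

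Melanosome structure and transport genes were all higher. Pmel, whose protein forms the fibrils on which pigment is laid down, was at 1956, 2105 and 1979 RPKM in OT-I acute and 3.71, 4.06 and 3.38 RPKM in vehicle acute libraries. Mlana, the melanoma antigen MART-1, was at 996, 1114 and 917 RPKM against 0.258, 0.148 and 0 RPKM. Gpnmb, a melanosome glycoprotein also made by activated macrophages, was at 701, 706 and 730.1 RPKM against 6.1, 6.29 and 7.49 RPKM. The groups were far apart for each of these genes, and the 3 OT-I acute libraries lay close together. Rab38, a GTPase that brings enzymes to the melanosome, was at 264, 283 and 264 RPKM against 0.0377, 0.0431 and 0 RPKM. The transporter genes Slc45a2 and Slc24a5 had levels of 184 ± 4.25 and 147 ± 9.56 RPKM (mean ± SD of 3 libraries, here and below) in OT-I acute libraries, Slc45a2 with no read and Slc24a5 at 1.37 ± 0.339 RPKM in vehicle acute libraries. The other members of this role were lower in level: Tspan10 at 82.4 ± 4.89, Trpm1 at 30.9 ± 1.37, the receptor gene Gpr143 at 23.5 ± 1.62 and the transporter gene Oca2 at 9.16 ± 0.672 RPKM.

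The lineage factors followed. Sox10 was at 131, 134 and 126 RPKM in OT-I acute libraries and 0, 0 and 0.0428 RPKM in vehicle acute libraries. Mitf was at 96.9, 92.1 and 109.9 RPKM against 0.31, 0.131 and 0.28 RPKM (log2 difference 6.34, SE 0.17, adjusted p = 1.36e-17). Pax3, an upstream regulator of Mitf, was at 38.3, 38.6 and 39.4 RPKM and had no read in vehicle acute libraries. Of the receptors, Mc1r, which binds melanocyte-stimulating hormone, was at 44.8, 48.9 and 42.8 RPKM with no read in vehicle acute libraries. Kit, the stem cell factor receptor, stood apart from the other pigment genes with the smallest difference. Its level was 3.7, 3.33 and 4.21 RPKM in OT-I acute and 1.16, 1.21 and 0.987 RPKM in vehicle acute libraries (log2 difference 1.16, SE 0.11), while vehicle chronic libraries without melanoma cells listed it at 13.6, 13.8 and 13.8 RPKM.

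**Figure D1:**
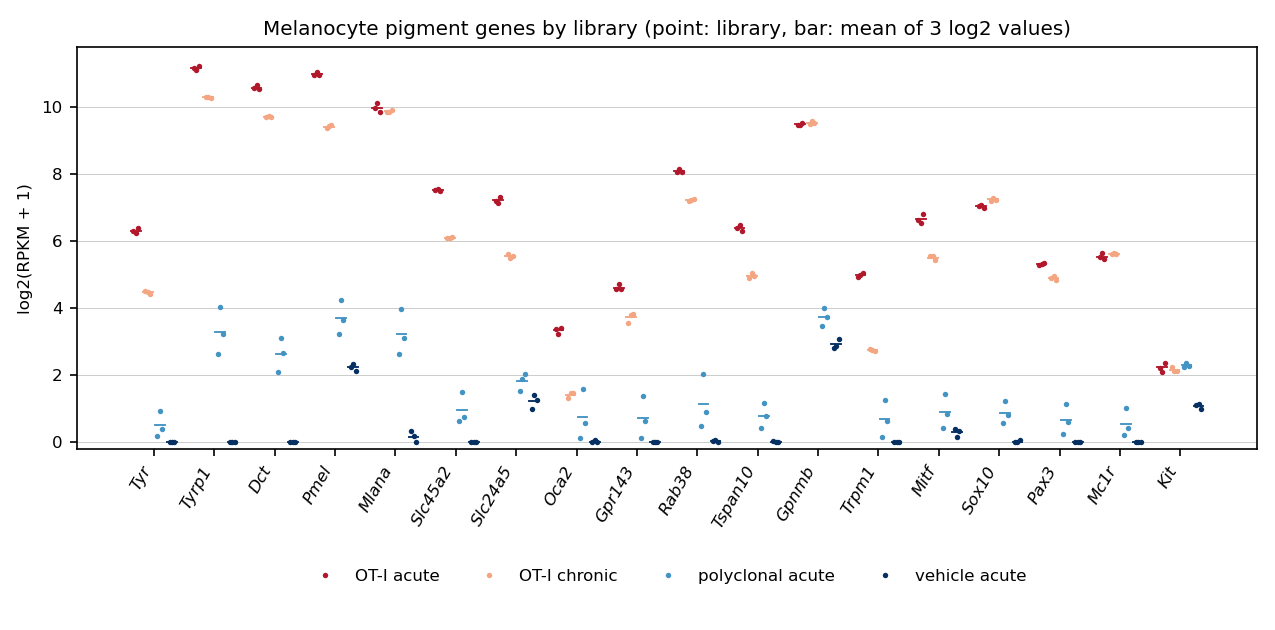
Level of the 18 measured melanocyte pigment genes as log2(RPKM + 1) in 4 groups of 3 libraries; each point is a library and each bar the mean of 3. Tyrp1, Dct, Pmel and Mlana lie above 900 RPKM in every OT-I acute library, vehicle acute libraries lie near 0 for most genes, and polyclonal acute libraries list most of them at a low level.

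The polyclonal acute libraries, from cultures without melanoma cells, were not free of pigment reads. Tyrp1 was listed there at 5.21, 15.3 and 8.47 RPKM, which is 0.229%, 0.672% and 0.371% of the OT-I acute mean, whereas the 9 libraries of the vehicle and N-acetylcysteine experiment all had Tyrp1 at 0. Where those reads came from was not tested. In OT-I chronic libraries Tyrp1 was at 1245, 1251 and 1237 RPKM, below all 3 OT-I acute libraries. Of the 18 pigment genes, 17 were higher and Kit was lower in OT-I chronic against vehicle chronic (median log2 difference 5.41), where 46.9% of all genes were higher and 27.6% lower.

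A wider set was drawn from the files alone. Genes of the co-culture were taken as those at 0.5 RPKM or less in each of the 15 libraries without melanoma cells and at 2 RPKM or more in each OT-I acute library, and they numbered 32. Because of the pigment reads in polyclonal libraries, the same limits were also set against only the 9 libraries of the vehicle and N-acetylcysteine experiment, a choice made after the data were seen, and then 498 genes met them. The values of OT-I acute libraries chose these genes and are not evidence for them. OT-I chronic libraries were not used in the choice. There 426 of the 498 were at 2 RPKM or more in all 3 libraries, 90 lay above and 301 below all OT-I acute libraries. Just inside the limit the lowest gene stood at 2.01 RPKM in its lowest OT-I acute library and just outside at 2.00 RPKM, with 56 and 66 genes within 0.5 RPKM of it. The 498 genes took 3.24%, 3.21% and 3.54% of reads in OT-I acute libraries, 2.63% to 2.74% in OT-I chronic and 0.0107% to 0.0116% in vehicle acute libraries. In polyclonal acute libraries 1 to 3 they took 0.0255%, 0.272% and 0.0938%. Their median level there was 0.995%, 16.5% and 5.35% of the OT-I acute mean, above the percentages given for Tyrp1. Low reads of co-culture genes in polyclonal libraries were thus not confined to pigment genes. Polyclonal acute library 2, with the highest of these levels, was the shallowest of the 21 libraries (5347355 reads). Where these reads came from was not tested.

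Extracellular matrix and adhesion genes, which melanoma cells express, were measured as well. Of 26 listed, 23 are in the table and 20 passed the filter. Of these, 14 were below 1 RPKM in every vehicle acute library and were tested only because of their OT-I acute level, so their direction was set by the filter. The other 6 were higher in 4 and lower in 2 cases. Over all 20, 17 were higher and 2 lower, where 48.2% of all genes were higher and 32.8% lower. The median log2 difference was 2.53 (2.89 with the 1 gene without a vehicle acute read, Cav1, at its lower bound). The 23 genes summed to 442 to 463 RPKM in OT-I acute and 75.2 to 76.9 RPKM in vehicle acute libraries. The list was also high without melanoma cells, at 342 to 362 RPKM in vehicle chronic and 492 to 530 RPKM in polyclonal chronic libraries. Sparc, a secreted matrix protein, was at 95, 100.4 and 98.1 RPKM in OT-I acute and 0.09, 0.0773 and 0.044 RPKM in vehicle acute libraries. S100b, a calcium-binding protein of neural crest derived cells, was at 45.5, 53.2 and 38.5 RPKM against 0.0358, 0.123 and 0 RPKM. The actin-binding caldesmon gene Cald1 was at 34.2, 35 and 35.8 RPKM against 0.0883, 0 and 0.0144 RPKM. Absence of overlap was a condition for naming these 3 genes and is not a result, and 47.8% of all genes met it on the higher side. Fibronectin (Fn1) was at 16.3, 14.9 and 22 RPKM in OT-I acute and at 113, 116 and 94.8 RPKM in OT-I chronic libraries, so this matrix gene, unlike Tyrp1, was higher in the chronic co-culture (difference of the 2 differences -1.62, adjusted p = 0.000921).

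Lysosome genes were mostly higher. Of 23 tested, 21 were higher and 1 lower, with a median log2 difference of 0.96, where 48.2% of all genes were higher and 32.8% lower. Without 2 genes below 1 RPKM in every vehicle acute library 19 of 21 were higher. Hydrolases made up 13 of the higher genes and membrane proteins 8. Cd63, a tetraspanin of lysosomes and melanosomes, was at 199, 239 and 165 RPKM against 0.0981, 0.225 and 0.0959 RPKM. The cysteine protease gene Ctsl was at 61.8, 65.5 and 58.7 RPKM against 0.525, 0.582 and 0.927 RPKM. Hexa, a subunit of the enzyme that degrades gangliosides, was at 161, 175 and 157 RPKM against 15.6, 15.6 and 14.8 RPKM (log2 difference 3.34, SE 0.065, adjusted p = 1.43e-19). T cells express Hexa as well, as its level in vehicle acute libraries shows, while Cd63 and Ctsl were below 1 RPKM there.

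T cell identity genes were lower in most cases. Of 17 measured, 13 were lower and Cd8a alone was higher, with a median log2 difference of -0.67. Over all genes 32.8% were lower and 48.2% higher. The 17 genes summed to 2492, 2602 and 2193 RPKM in OT-I acute and to 3909, 3996 and 3895 RPKM in vehicle acute libraries. Of 4 TCR complex genes 3 were lower. Cd3e was at 141, 146 and 132 RPKM against 209.7, 202 and 200.3 RPKM (log2 difference -0.55, SE 0.079, adjusted p = 2.58e-06). With the T cell list held equal, the difference of Cd3e was 0.09 (adjusted p = 0.167), as that scaling sets this list near 0 by its construction. Lck, the kinase that phosphorylates the TCR complex, was at 154, 159 and 129 RPKM against 310.3, 323 and 314 RPKM. Surface proteins were lower in all 5 cases, led by Cd5, a brake on TCR signalling, at 18.2, 17.5 and 15.4 RPKM against 40.9, 44.2 and 43.9 RPKM, and by Thy1 at 370.0, 379 and 318 RPKM against 854, 844 and 815 RPKM. Cd8a went the other way at 110.1, 105 and 104 RPKM against 87.3, 88.7 and 85.2 RPKM (log2 difference 0.28, SE 0.036, adjusted p = 4.64e-07), and its difference was 0.05 with a common median (adjusted p = 0.294). Pigment RNA takes part of the reads of the same OT-I acute libraries, and its part in the lower level of this list was not tested.

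Cytotoxic genes showed a large shift between granzymes. Of 20 effector genes, 13 were lower and 6 higher (median log2 difference -0.58), where 32.8% of all genes were lower and 48.2% higher. With the T cell list held equal 8 were lower and 9 higher, against 1245 and 9078 of all 11749 genes. Gzma (granzyme A) was at 88.8, 94.1 and 71.9 RPKM in OT-I acute and 2973, 3020.0 and 3135 RPKM in vehicle acute libraries, a log2 difference of -5.16 (SE 0.09, adjusted p = 3.36e-20). Gzmk was at 0.889, 0.791 and 1.83 RPKM against 38.8, 40.1 and 42.5 RPKM. Gzmc went the other way, at 249, 289 and 213 RPKM against 43.5, 43.6 and 41.6 RPKM. Granzymes A and K were thus lower, granzyme C was higher, and granzyme B was high in both groups. Gzmb was at 3081, 3208 and 2670.3 RPKM against 5716, 5334 and 4667 RPKM (log2 difference -0.81, SE 0.11). Ifng, the interferon-γ gene, was low in both groups, at 7.33, 7.04 and 6.11 RPKM in OT-I acute and 5.2, 4.67 and 4.13 RPKM in vehicle acute libraries. In the chronic libraries Ifng was at 619, 637 and 641 RPKM with OT-I cells and 432, 439 and 421 RPKM with vehicle. Gzma had an OT-I minus vehicle difference of -5.32 in chronic libraries, and the difference between both differences did not pass the test (0.17, SE 0.13, adjusted p = 0.266).

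Memory and differentiation genes were lower in 14 and higher in 4 of 20 cases (median log2 difference -0.89). Over all genes 32.8% were lower and 48.2% higher. All 6 homing and survival genes were lower, the 9 memory factors were lower in 5 and higher in 2 cases, and the 5 effector factors were lower in 3 and higher in 2. With the T cell list held equal 11 of the 20 were lower and 6 higher, and the memory factors lower in 3 and higher in 4. That scaling made 1245 of all 11749 genes lower and 9078 higher. Eomes, a T-box factor of memory and effector cells, was at 10.4, 10.4 and 9.89 RPKM against 94.2, 90.2 and 90.3 RPKM (log2 difference -3.04, SE 0.04, adjusted p = 2.22e-21). Tcf7, the factor of stem-like and memory cells, was at 32.1, 31.9 and 31.1 RPKM against 158, 176 and 192 RPKM. Il7r, the interleukin 7 receptor that sustains memory cells, was at 42.3, 38.8 and 42.2 RPKM against 70.4, 76.5 and 89.6 RPKM. No OT-I acute library reached a vehicle acute library for these genes, which the naming rule required of Eomes. The chemokine receptor gene Cxcr3 was at 14, 16.8 and 14.3 RPKM against 103, 111 and 115 RPKM. Zeb2, a factor of terminal effector cells that melanocytes also express, was higher at 16.6, 14.4 and 19.3 RPKM against 0.927, 0.916 and 1.02 RPKM. Polyclonal acute libraries, also without melanoma cells, had Tcf7 at 50.7, 47.5 and 48.1 RPKM, well below vehicle acute libraries.

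Activation and inhibitory receptor genes differed in both directions. Of 25 tested, 16 were higher and 7 lower (median log2 difference 0.84), where 48.2% of all genes were higher and 32.8% lower, and 6 of 7 costimulation and feedback genes were higher. Nr4a3, a nuclear receptor induced by TCR signals, was at 56.1, 53.1 and 66.5 RPKM against 1.39, 1.13 and 1.38 RPKM (log2 difference 4.69, SE 0.068, adjusted p = 4.52e-21). Tnfrsf4, which encodes the costimulatory receptor OX40, was at 48.4, 54.4 and 43.8 RPKM against 6.94, 7.72 and 5.43 RPKM. Cd160, a receptor of the immunoglobulin family, was lower at 5.79, 5.81 and 5.42 RPKM against 39.4, 43.2 and 39.2 RPKM. The inhibitory receptors split evenly, 4 higher and 4 lower. In chronic libraries 18 of the 25 genes were lower with OT-I cells and 3 higher (median -1.39). Over all genes 27.6% were lower and 46.9% higher there. The acute difference exceeded the chronic one for 21 of the 25. The test of the difference between the differences called 31.9% of all genes higher and 29.0% lower. Vehicle chronic libraries had Nr4a3 at 34.4, 34.2 and 35.5 RPKM, against 1.39, 1.13 and 1.38 RPKM in vehicle acute libraries.

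**Figure D2:**
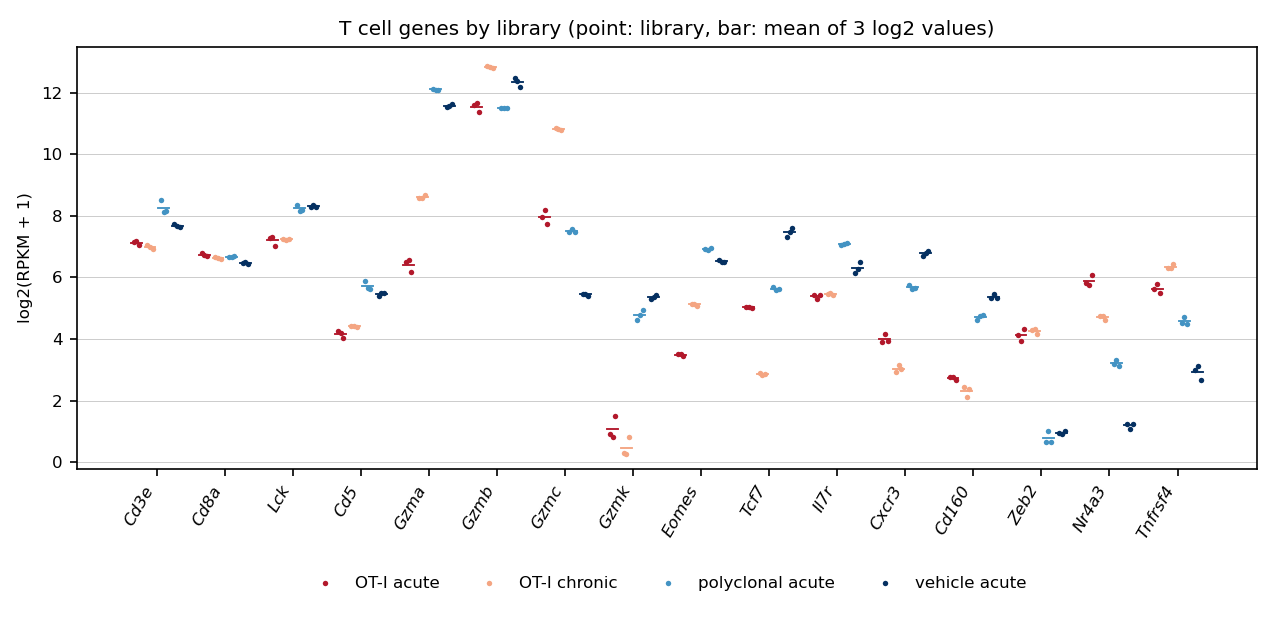
Level of 16 T cell genes as log2(RPKM + 1) in 4 groups of 3 libraries; each point is a library and each bar the mean of 3. Gzma, Gzmk, Eomes, Tcf7, Cxcr3 and Cd160 lie lower and Gzmc, Zeb2, Nr4a3 and Tnfrsf4 lie higher in OT-I acute than in vehicle acute libraries, while Cd8a differs little.

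Interferon-stimulated genes were mostly higher in OT-I acute libraries, where 48.2% of all genes were higher and 32.8% lower. All 24 genes of the type I interferon list were higher, with a median log2 difference of 3.21, and so were 26 of 32 genes of the interferon-γ list, of which 4 were lower (median 0.94). Without genes below 1 RPKM in every vehicle acute library, 3 of each list, 21 of 21 and 23 of 29 were higher. With a common median the counts of higher genes were 24 and 23. The promoters of Cxcl10, Isg15 and Rsad2 are shown because they hold GAAANNGAAA, a core of the interferon-stimulated response element. Windows and source are as above, with capitals on the motif or its reverse complement.
Cxcl10: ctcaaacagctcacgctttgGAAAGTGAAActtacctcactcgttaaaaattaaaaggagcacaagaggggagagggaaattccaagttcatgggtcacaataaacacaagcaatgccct
Isg15: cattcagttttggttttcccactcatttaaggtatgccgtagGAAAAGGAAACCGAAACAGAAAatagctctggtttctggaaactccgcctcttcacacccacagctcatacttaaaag
Rsad2: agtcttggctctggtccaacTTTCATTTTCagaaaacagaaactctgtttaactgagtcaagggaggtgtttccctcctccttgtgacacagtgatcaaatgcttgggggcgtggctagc
The positions are chr5:92349003-92349122, chr4:156200819-156200938 and chr12:26456473-26456592, all on the minus strand. Isg15 has 3 matches that overlap, at 78, 72 and 66 bases before the start. Among matched promoters the motif was in 8 of 19 of the type I list (42.1%, 17 of 24 genes matched) and in 10 of 28 of the interferon-γ list (35.7%, 25 of 32 genes matched), against 2.98% of all promoters.

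Among the ligands, Cxcl10, which attracts T cells through CXCR3, was at 327, 347 and 326 RPKM in OT-I acute and 1.35, 1.36 and 1.48 RPKM in vehicle acute libraries (log2 difference 7.12, SE 0.16, adjusted p = 6.98e-19). Cxcl11, a ligand of the same receptor, was at 19.1, 20.6 and 18.2 RPKM against 0, 0.127 and 0 RPKM. Both were still higher in the chronic co-culture, Cxcl10 at 1747, 1775 and 1809 RPKM and Cxcl11 at 162, 162 and 165 RPKM. Their receptor gene Cxcr3 was lower in the same OT-I acute libraries, as given above. Of 9 interferon-induced GTPases 9 were higher. Iigp1, which acts on vacuoles of intracellular pathogens, was at 274, 259 and 273 RPKM against 34.4, 28.6 and 31.9 RPKM. Antigen presentation genes were higher in 10 of 12 cases and lower in 1. Receptor and signalling genes split, 3 higher and 3 lower of 7.

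Of the type I targets, Ifi44 was at 77.9, 77.7 and 78.7 RPKM against 0.143, 0.0936 and 0.12 RPKM. Rsad2, which encodes the antiviral enzyme viperin, was at 165, 166 and 167 RPKM against 1.7, 2.23 and 2.46 RPKM. Ifit3, which binds foreign RNA with its relatives, was at 308, 323 and 275 RPKM against 4.94, 6.1 and 5.52 RPKM and shares 62% of its words, stretches of 31 bases as explained below, with another gene. Each of the 3 genes was tightly grouped in OT-I acute libraries, and no overlap with vehicle acute libraries was a condition for naming them. Isg15, a ubiquitin-like modifier, was at 557, 639 and 438 RPKM against 13.9, 15.2 and 15.1 RPKM. Polyclonal acute libraries held intermediate levels, with Ifi44 at 2.82, 4.12 and 4.05 RPKM and Rsad2 at 10.9, 11.7 and 12.7 RPKM. In chronic libraries all 24 genes were higher with OT-I cells too (median 4.15), against 46.9% of all genes. For 15 of the 24 the acute difference was smaller than the chronic one, and for 2 it was larger. For the interferon-γ list it was smaller for 30 of 32 and larger for 2, where it was smaller for 29.0% and larger for 31.9% of all genes.

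MHC class II genes, which most mouse T cells do not express and interferon-γ induces in other cells, were also higher. Cd74, the invariant chain, was at 314, 325 and 309 RPKM against 1.6, 1.35 and 1.72 RPKM. H2-Aa was at 65.5, 68.7 and 58.4 RPKM against 0.278, 0.509 and 0.489 RPKM and H2-Eb1 at 27.1, 27.2 and 21.2 RPKM against 0.534, 0.245 and 0.278 RPKM. These genes are also B cell markers. The 10 markers on that list summed to 456 to 501 RPKM in OT-I acute libraries. Without melanoma cells they summed to 1253 to 1512 RPKM in polyclonal chronic libraries and 14.8 to 18.1 RPKM in vehicle chronic libraries. Which cells the class II RNA came from was not tested. Of the 10 markers on that list 5 were tested, and H2-Aa and H2-Eb1 were tested only because of their OT-I acute level, so the count of higher markers (4 of 5) is in part set by the filter. The member that was not higher, Cd79b, was at 2.59, 4.07 and 4.02 RPKM against 4.49, 5.8 and 4.58 RPKM (adjusted p = 0.0529). The defining B cell genes Cd79a, Ms4a1, Pax5 and Cd22 did not pass the filter on low values.

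The ATF4 response was higher with few exceptions. Of 38 tested genes 35 were higher and 1 lower, where 48.2% of all genes were higher and 32.8% lower. The median log2 difference was 1.53 against 0.15 over all genes. Without 4 genes below 1 RPKM in every vehicle acute library, 31 of 34 were higher and 1 lower. Gdf15 and Fgf21 are not in the table. The factors (8 of 8), amino acid transporters (8 of 8) and tRNA synthetases (5 of 5) were all higher. Amino acid synthesis genes were higher in 8 of 10 cases. The promoters of Chac1, Atf3 and Asns are shown because they hold TGATGNAA, the composite C/EBP-ATF element that ATF4 is known to bind. Capitals mark the motif or its reverse complement.
Chac1: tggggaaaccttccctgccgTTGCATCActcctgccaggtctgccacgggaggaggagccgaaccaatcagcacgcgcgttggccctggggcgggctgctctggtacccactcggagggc
Atf3: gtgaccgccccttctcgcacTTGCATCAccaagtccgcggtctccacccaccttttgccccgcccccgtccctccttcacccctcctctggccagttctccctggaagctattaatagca
Asns: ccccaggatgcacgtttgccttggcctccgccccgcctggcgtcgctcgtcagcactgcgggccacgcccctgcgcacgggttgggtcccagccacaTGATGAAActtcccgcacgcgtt
The windows are chr2:119351029-119351148 on the plus strand and chr1:191183344-191183463 and chr6:7693210-7693329 on the minus strand. The motif was in 9 of 36 matched promoters (25%, 30 of 38 genes matched), against 3.45% of all promoters. The 9 genes were Aars, Asns, Atf3, Chac1, Gars, Nupr1, Pck2, Slc7a11 and Vldlr.

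Ddit3, the gene of the pro-apoptotic factor CHOP, was at 738, 801 and 629.9 RPKM in OT-I acute and 24.6, 26 and 27.1 RPKM in vehicle acute libraries (log2 difference 4.74, SE 0.079, adjusted p = 1.71e-20). Polyclonal acute libraries had Ddit3 at 30.6, 26.4 and 23.8 RPKM, close to vehicle acute libraries. In OT-I chronic libraries, which also held melanoma cells, Ddit3 was at 175, 177 and 184 RPKM, below every OT-I acute library. Atf4 itself was at 473, 502 and 437 RPKM against 227, 224 and 209 RPKM, a smaller difference (1.09, SE 0.054). Much of the control of ATF4 is known to be by translation, which RNA does not show. Trib3, a pseudokinase that feeds back on ATF4, was at 248, 277 and 234 RPKM against 23.6, 22.5 and 20.2 RPKM. Nupr1, a stress-induced chromatin protein, was at 302, 333 and 271 RPKM against 5.41, 6.2 and 6.68 RPKM. Aldh1l2, an enzyme of mitochondrial folate metabolism, was at 27.3, 23.5 and 31.1 RPKM against 0.0887, 0.124 and 0.0385 RPKM. All of these genes separated the 2 groups without overlap, which the naming rule required of those not fixed in advance.

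The genes shown by promoter had the same direction. Chac1, which degrades glutathione, was at 68.7, 73.5 and 63.6 RPKM against 5.79, 6.29 and 5.07 RPKM. Atf3 was at 38.4, 39.4 and 35.7 RPKM against 2.86, 3.17 and 2.76 RPKM. Asns, the asparagine synthetase, was at 252, 264 and 243 RPKM against 85.3, 81.4 and 72.3 RPKM. The only member that was lower was Psat1, an enzyme of serine synthesis, at 118, 118 and 108 RPKM against 155, 150.1 and 141 RPKM (log2 difference -0.37, SE 0.05). Its pathway neighbour Phgdh was at 48.3, 51.8 and 34.7 RPKM against 49, 49.2 and 45.6 RPKM (adjusted p = 0.297). In chronic libraries 24 of the 38 genes were higher with OT-I cells and 4 lower, with a median of 0.43. Over all genes 46.9% were higher and 27.6% lower there. The acute difference was larger than the chronic one for 35 of the 38 and smaller for 1, where 31.9% of all genes were larger. For Ddit3 the difference between the differences was 2.89 (SE 0.11, adjusted p = 2.36e-14). Among the pigment genes the acute difference was larger in 12 of 18 cases and smaller in 1, where 31.9% and 29.0% of all genes were. The part of melanoma RNA in the result for the ATF4 list was not tested.

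**Figure D3:**
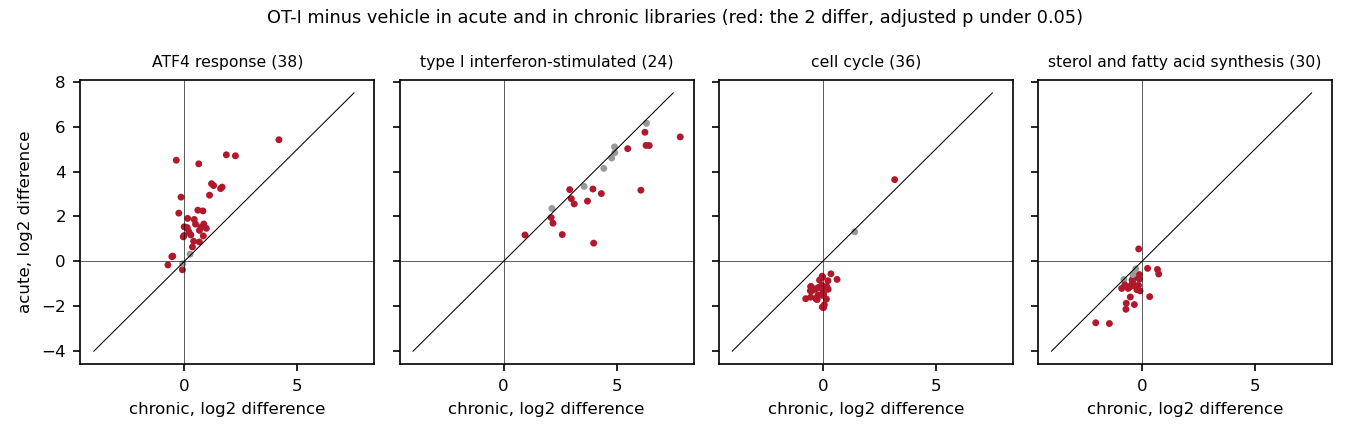
Log2 difference of OT-I minus vehicle in chronic libraries (horizontal axis) and in acute libraries (vertical axis) for tested members of 4 lists; each point is a gene and the diagonal marks equal differences. ATF4 genes lie mostly above the diagonal (35 of 38 differ upward), type I interferon genes mostly on or below it (15 of 24 differ downward and 2 upward), and most cell cycle genes below it (34 of 36 differ downward). The 3 G1 genes were all higher with OT-I cells in chronic libraries.

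Other stress lists were mixed in direction. ER chaperone genes were higher in 10 and lower in 10 of 20 cases (median 0.01): all 6 tested degradation genes and factors were higher, and chaperones and folding enzymes were higher in 4 and lower in 10. Sel1l, of the degradation complex, was at 45.8, 40.1 and 50.3 RPKM against 17.7, 18.7 and 19 RPKM, whereas the chaperone gene Sdf2l1 was at 24.6, 24.8 and 21.6 RPKM against 99.9, 99.1 and 87.9 RPKM and Calr (calreticulin) at 204, 213 and 196 RPKM against 493, 465 and 443 RPKM. With the T cell list held equal 14 of the 20 were higher and 3 lower. That scaling made 9078 of all 11749 genes higher and 1245 lower. Hypoxia targets were higher in 11 and lower in 6 of 21 cases, near the 48.2% and 32.8% of all genes, and in 19 and 1 with the T cell list held equal. The largest differences were in Vegfa, the vascular growth factor, at 33.6, 33.5 and 34.6 RPKM against 5.38, 5.4 and 3.79 RPKM, Ndrg1 at 79.1 ± 2.37 against 17.2 ± 4.07 RPKM and P4ha2, a collagen prolyl hydroxylase, at 12.6 ± 0.775 against 3.74 ± 0.937 RPKM.

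NRF2 and antioxidant genes were higher in 13 and lower in 8 of 24 cases (median 0.26), shares near those of all genes (48.2% and 32.8%). With the T cell list held equal 19 were higher and 2 lower, and with a common median 10 and 10. Over all 11749 genes those scalings gave 9078 higher and 1245 lower, and 4384 higher and 5143 lower. Of the 24, 4 were below 1 RPKM in every vehicle acute library, and the other 20 were higher in 9 and lower in 8 cases. Hmox1, the haem oxygenase, was at 79.7, 85.6 and 81.2 RPKM against 16.6, 14.2 and 11.8 RPKM (log2 difference 2.47, SE 0.10, adjusted p = 4.59e-15). Slc7a11, the cystine importer that is also an ATF4 gene, was at 7.91, 6.8 and 9.61 RPKM against 0.219, 0.177 and 0.126 RPKM. The malic enzyme gene Me1 was at 9.53 ± 0.639 against 0.208 ± 0.0544 RPKM and Gstm1, a glutathione transferase, at 8.13 ± 0.889 against 0.586 ± 0.0844 RPKM. Both have close copies and share 34% and 33% of their words. Heat shock genes split 5 to 5 among 12. Of these, 2 (Cryab and Hspb1) were below 1 RPKM in every vehicle acute library, so their direction was set by the filter. The other 10 were higher in 3 and lower in 5 cases. The small heat shock protein gene Cryab, a co-culture gene by the 9-library limits, was at 74.8, 85.6 and 79.8 RPKM against 0.0485, 0 and 0 RPKM. Its relative Hspb1, with 57% shared words, was at 4.57 ± 0.735 against 0.0867 ± 0.0751 RPKM, and the co-chaperone gene Bag3 at 16.2 ± 0.756 against 3.94 ± 0.379 RPKM.

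Of 17 p53 targets 7 were higher and 10 lower (median -0.26), where 48.2% of all genes were higher and 32.8% lower. With the T cell list held equal 11 were higher and 3 lower, against 9078 and 1245 of all 11749 genes. Of 9 death genes 7 were lower. Sesn1 was at 11.4, 10.7 and 11.4 RPKM against 31.2, 33.8 and 37.4 RPKM, and the kinase gene Plk2 was higher at 8.65, 8.41 and 9.33 RPKM against 2.44, 2.09 and 2.72 RPKM. The related gene Sesn2, which is on the ATF4 list too, was higher at 48.6, 45.5 and 48.2 RPKM against 16.9, 16.1 and 16.4 RPKM. Metallothionein and zinc genes were higher in 3 and lower in 2 of 6 cases. The metal-binding Mt1 was at 478, 564 and 401 RPKM against 352, 343 and 296 RPKM (log2 difference 0.53, SE 0.10) and Mt2 at 431 ± 57.3 against 201 ± 15.7 RPKM. Mt3 was lower at 1.78 ± 0.717 against 12.5 ± 3.09 RPKM, as was the zinc importer gene Slc39a10 at 3.84 ± 0.8 against 7.03 ± 0.182 RPKM (adjusted p = 2.95e-07, and adjusted p = 0.11 with the T cell list held equal).

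Cell cycle genes were lower almost throughout. Of 36 measured 34 were lower, with a median log2 difference of -1.24, where 32.8% of all genes were lower. The 34 included all 15 replication and all 18 mitosis genes. With the T cell list held equal 31 were lower, against 1245 of all 11749 genes. Rrm2, the regulatory subunit of ribonucleotide reductase, was at 57.5, 58.3 and 56.4 RPKM against 244, 249.6 and 236 RPKM (log2 difference -2.06, SE 0.042, adjusted p = 2.6e-19). The licensing factor gene Cdc6 was at 3.55, 3.74 and 4 RPKM against 18.1, 20.3 and 17.4 RPKM. Mki67, a marker of cycling cells, was at 53.7, 44.6 and 60.7 RPKM against 166, 161 and 179.9 RPKM. For all 3 genes the vehicle acute libraries were the higher ones. Ccnd1 (cyclin D1), which many melanocytic cells express and T cells mostly replace by other D cyclins, was higher at 15.6, 14.9 and 16.4 RPKM against 0.25, 0.233 and 0.536 RPKM. Ccnd1 was tested only because of its OT-I acute level, so its direction was set by the filter. Polyclonal acute libraries had Rrm2 at 139, 139 and 142 RPKM, between both groups. In chronic libraries 15 of the 36 were lower and 9 higher with OT-I cells (median -0.02), where 27.6% of all genes were lower and 46.9% higher. The acute difference was below the chronic one for 34 of the 36, against 29.0% of all genes. At the level of the values, vehicle chronic libraries had Rrm2 at 114, 114 and 110.2 RPKM, below vehicle acute, and OT-I chronic libraries at 117, 119 and 110.2 RPKM, above OT-I acute.

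Sterol and fatty acid synthesis genes, which the factor SREBP controls, were lower in 29 of 30 cases (median -1.07), against 32.8% of all genes. With the T cell list held equal 21 were lower and 4 higher, against 1245 and 9078 of all 11749 genes. All 17 sterol pathway genes and all 5 uptake and control genes were lower. Idi1, an isomerase of the isoprenoid pathway, was at 1.39, 1.22 and 0.877 RPKM against 14.2, 13.4 and 13.4 RPKM (log2 difference -2.77, SE 0.092, adjusted p = 3.81e-16). Hmgcs1, an early enzyme of the same pathway, was at 1.34, 1.42 and 1.63 RPKM against 17.3, 17.6 and 11.9 RPKM. Acat2, which makes its first intermediate, was at 4.69, 5.23 and 4.15 RPKM against 24.3, 23.8 and 23.6 RPKM and shares part of its sequence with another gene. That the groups did not overlap was a condition for naming these 3 genes, and 32.2% of all genes met it on the lower side. In chronic libraries 24 of the 30 were lower and 4 higher (median -0.38), where 27.6% of all genes were lower and 46.9% higher. For 26 the acute difference was the lower one, against 29.0% of all genes.

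Glycolysis genes were lower in 14 and higher in 5 of 19 cases (median -0.34), where 32.8% of all genes were lower and 48.2% higher. With the T cell list held equal 12 were higher and 3 lower, against 9078 and 1245 of all 11749 genes. Slc2a1, the glucose transporter GLUT1, was at 51.3, 50.4 and 47 RPKM against 76.6, 71 and 59.7 RPKM (log2 difference -0.46, SE 0.068, adjusted p = 2.83e-06), and its difference became 0.17 with the T cell list held equal. Pgam1 was at 7.67 ± 1.11 against 39.8 ± 5.66 RPKM and Pgk1 at 24.9 ± 5.85 against 105 ± 12.7 RPKM, and both share sequence with copies elsewhere. Eno2, an enolase isoform of neural and neuroendocrine cells, was higher at 10.4, 10.6 and 11.6 RPKM against 0.106, 0.17 and 0.187 RPKM. Its direction was set by the filter, which it passed through OT-I acute libraries alone. Of 78 respiratory chain genes 18 were higher and 32 lower (median -0.11), where 48.2% of all genes were higher and 32.8% lower. With the T cell list held equal 60 were higher and 8 lower, near the share of all genes (9078 and 1245 of 11749). The most changed respiratory chain genes were Cox6a2 and Atp5k. Cox6a2 was at 27.7, 35 and 25.4 RPKM against 0.811, 0.413 and 0.353 RPKM, and it too passed the filter through OT-I acute libraries alone. Atp5k was at 52.5, 53.1 and 39.2 RPKM against 300.5, 307 and 275 RPKM. Atp5s was at 9.15 ± 0.332 against 3.9 ± 0.113 RPKM. OT-I chronic libraries had Cox6a2 at 1.09, 0.782 and 0.991 RPKM, so its high level was found in the acute co-culture and not in the chronic one (difference of the differences 4.98, adjusted p = 9.49e-11).

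**Figure D4:**
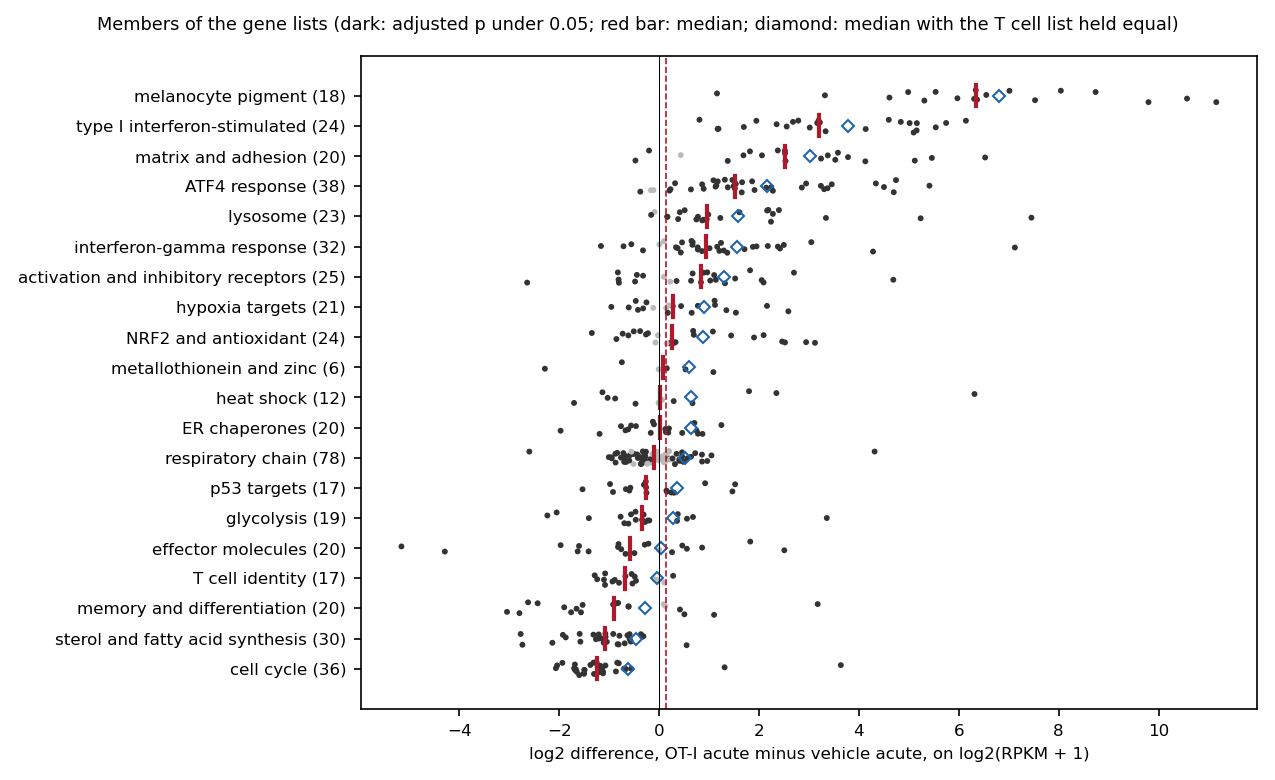
Log2 difference of OT-I acute minus vehicle acute for each tested member of 20 gene lists, with the number tested in brackets; red bars are medians, diamonds medians with the T cell list held equal, and the dashed line is the median of all genes (0.15). Pigment genes have the highest median (6.35) and cell cycle genes the lowest (-1.24), and every diamond lies to the right of its bar.

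Over all genes, the largest differences by the naming rule, which leaves out small RNAs such as Mir6236 (described below), were in 6 pigment genes, in Cd63 and in Syt4, a synaptotagmin gene, at 241, 233 and 252 RPKM in OT-I acute and 0.0152, 0 and 0 RPKM in vehicle acute libraries. On the lower side, apart from Xist, Gzma and Gzmk, were Esm1, a proteoglycan gene, at 0.295, 0.397 and 0.834 RPKM against 15.2, 14.4 and 13.8 RPKM, and Trat1, an adaptor of the TCR complex, at 1.57, 1.99 and 2.01 RPKM against 25.3, 27.3 and 29.9 RPKM. The histone genes Hist1h2ag, Hist1h3c and Hist1h2bj were also among the lowest. Hist1h2ag was at 0.252 ± 0.0858 against 12.9 ± 2.91 RPKM, Hist1h3c at 1.26 ± 0.307 against 22.7 ± 3.07 RPKM and Hist1h2bj at 0.717 ± 0.373 against 16.3 ± 0.597 RPKM. They share 79%, 56% and 67% of their words with other genes.

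This sharing was examined after the data were seen. Each gene's transcripts were cut into words of 31 bases, and the percent of words that another gene also holds was counted for 11446 of the tested genes. Genes with 25% or more shared words made up 6.61% of these, 20.5% of those lower by 2-fold or more and 3.74% of those higher by 2-fold or more. The median log2 difference was 0.19 in genes with no shared word and -0.39 in genes with over 75%. Actg1 (γ-actin) was at 46.4, 50.6 and 40.8 RPKM against 389.8, 402 and 355 RPKM, Tuba1b (α-tubulin) at 42.7, 44 and 27.1 RPKM against 371, 366 and 340.1 RPKM and Ptma (prothymosin) at 122, 125 and 88.9 RPKM against 849.8, 844 and 802 RPKM. Such genes have copies or pseudogenes between which reads can be split or dropped, and how reads that fit several genes were handled is not known here. Without genes of 25% or more shared words, 5432 were higher and 3481 lower, and 620 in place of 773 were lower by 2-fold or more.

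**Figure D5:**
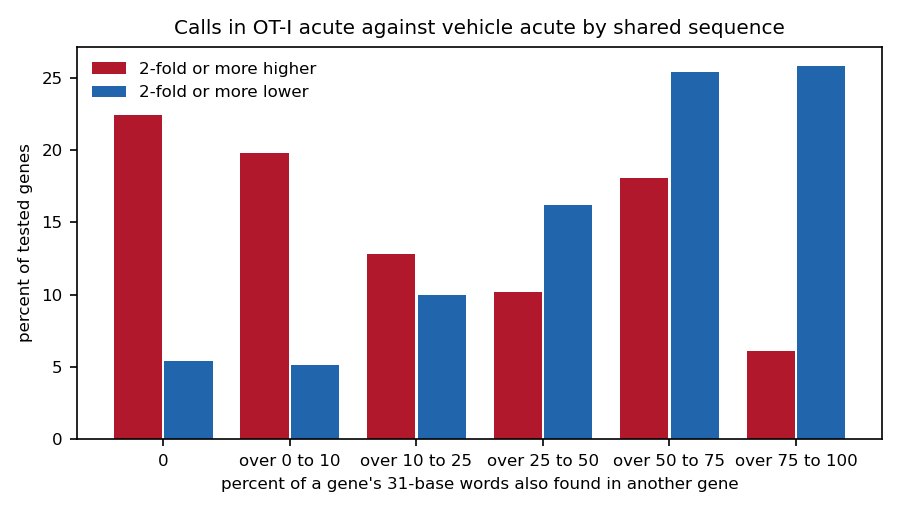
Percent of tested genes that were 2-fold or more higher (red) or lower (blue) in OT-I acute against vehicle acute, by the percent of a gene's 31-base words that also occur in another gene. Lower calls go from 5.39% of genes with no shared word to 25.9% of genes with over 75%.

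Reads of ribosomal origin differed within the OT-I acute group. Mir6236, a short annotation that lies within ribosomal RNA sequence, was at 652, 2769.9 and 1431 RPKM in OT-I acute and 0.966, 1.66 and 1.42 RPKM in vehicle acute libraries. Rn45s, the ribosomal RNA precursor, was at 385, 1647 and 2424 RPKM against 155, 256 and 169 RPKM. Polyclonal acute libraries had Rn45s at 275, 2314 and 1673 RPKM (adjusted p = 0.865 by limma, OT-I acute against polyclonal acute). Mir6236 was at 0, 1.52 and 4.74 RPKM there. These 2 genes were named after their values were seen, and OT-I acute library 1 was the lowest of its group for both. No count of calls moved by more than 1.5 times when any of the 6 libraries was left out.

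Markers of other immune cells were few. Cd4 was at 0.977, 1.35 and 1.97 RPKM against 13, 14.1 and 14.7 RPKM, and 2 of 3 tested CD4 T cell markers were lower, Cd40lg being the other. Zbtb7b, the CD4 lineage factor, was higher at 36.9 ± 3.23 against 16 ± 0.757 RPKM. The NK receptor gene Klrb1c was at 1.1, 1.33 and 1.97 RPKM against 8.46, 8.61 and 8.96 RPKM. Of 5 tested myeloid markers 3 were higher and 2 lower, where 48.2% of all genes were higher and 32.8% lower. Mpeg1, at 1.96 ± 0.123 against 0.0781 ± 0.0447 RPKM, was tested only because of its OT-I acute level. The other 4 were higher in 2 and lower in 2 cases, with Fcer1g at 27.3 ± 4.11 against 17 ± 2.34 RPKM and Cd68 at 4.87 ± 0.443 against 9.91 ± 1.5 RPKM. The 8 measured myeloid markers summed to 36.1 to 44.7 RPKM in OT-I acute and 29.1 to 35.9 RPKM in vehicle acute libraries. Lyz2 and Csf1r are not in the table. No erythroid marker passed the filter.

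The acute calls were then set beside the chronic libraries, which share no library with them. Of 5668 genes higher in OT-I acute against vehicle acute, 4005 (70.7%) were also higher in OT-I chronic against vehicle chronic and 564 were lower, where 46.9% of all genes were higher and 27.6% lower in chronic libraries. The 4005 are 72.6% of the 5513 genes higher in chronic libraries. Of 3848 lower genes 2064 (53.6%) were also lower in chronic libraries and 827 were higher, against the same 27.6% and 46.9%. Against polyclonal acute libraries, a comparison that shares the OT-I acute libraries with the first comparison, 5792 genes were higher (49.3%) and 3630 lower (30.9%). There the ATF4 list had 38 of 38 genes higher, the type I interferon list 23 of 24 and the pigment list 17 of 18. The cell cycle list had 32 of 36 lower and the sterol list 29 of 30 lower. Respiratory chain genes, lower in 32 of 78 cases against vehicle acute, were higher in 54 and lower in 8 against polyclonal acute libraries, so the direction for this list depended on which acute group was used. Other lists changed as well. Against polyclonal acute libraries p53 targets were higher in 10 and lower in 3 of 17 cases (median 0.46). Activation and inhibitory receptor genes were higher in 10 and lower in 10 of 25 (median 0.09). Glycolysis genes were higher in 7 and lower in 7 of 19.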

How the data were processed

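Per the labels' protocols, RNA was taken up in Trizol and its poly(A) fraction entered the NEBNext Ultra library kit. The authors deposited 1 table of RPKM with a column per library, and the name of each of the 21 columns matched 1 sample. Per the submitters' processing notes, the build was mm9 and the tools included edgeR, HTSeq and bcl2fastq 2.17, whose roles are not stated. The aligner, annotation, gene filter, strand setting and handling of reads that fit several genes are not given in the labels or headers, so reads of overlapping genes may be mixed.

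Values were taken as log2(RPKM + 1), a pseudocount of 1. All 21 libraries entered 1 limma fit (version 3.58.1, R 4.3.3) with a mean per group, an empirical Bayes trend and 14 residual degrees of freedom. A difference was called from two-sided tests at p under 0.05 after Benjamini-Hochberg adjustment over the 11749 genes. Whole reads were recovered from the RPKM steps for 100% of genes within 0.001 reads. They gave the depths, the floor of 3 reads for genes with no read, and limma's voom as an alternative. Floors cover counting error only. On data simulated from the mean levels of these libraries the test called 4% of 50 genes changed 1.2-fold, 78% at 1.5-fold, 90% at 2-fold and 94% at 4-fold. The simulation gave all genes and libraries the same relative spread beyond counting error. The real OT-I acute libraries were less alike than the vehicle acute ones, so these rates may not hold for them.

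Members and gene lists (26) were chosen with earlier results of these data known. Lists are described by counts and medians with no set test. Named were all pigment genes, up to 3 members per other list with the largest called difference and no overlap between groups, the 8 highest and 8 lowest genes (without predicted genes, clones and small RNAs), 4 at each end of the difference between acute and chronic differences, and 16 fixed genes. Genes named for a promoter, for shared words, as an only exception or as an example beside them were chosen after their values were seen. Promoters are from RefSeq (GRCm38.p6), and shared words from GENCODE transcripts. Alternatives were another pseudocount, other filters, common scalings, fewer libraries, a replicate block, voom and leaving out each library. Counts without genes of shared sequence or of the co-culture, and the co-culture limits against 9 libraries, were added after the data were seen.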

Additional observations from a re-analysis of the deposited data

Results flagged for a closer look

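For 7145 of 11749 genes the OT-I minus vehicle difference itself differed between acute and chronic libraries (limma on the difference of the 2 differences, adjusted p under 0.05), 3743 with a larger and 3402 with a smaller value in acute libraries. Values below are log2 acute difference minus log2 chronic difference.

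The 4 genes with the highest values were Gzmg, a granzyme (6.27), Penk, the proenkephalin gene (5.79), Crabp2, a retinoic acid binding protein (5.40), and Gzmf, another granzyme (5.28). In each the vehicle chronic libraries held the high level: Penk was at 1072, 1052 and 1086 RPKM there, at 41.7, 39.5 and 40.3 RPKM in OT-I chronic, at 2.32, 2.48 and 3.18 RPKM in OT-I acute and at 0.673, 0.819 and 0.617 RPKM in vehicle acute libraries. Gzmg shares 34% of its words with another gene.

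The 4 genes with the lowest values were Cxcl9, an interferon-γ induced chemokine (-6.62), Id3, an inhibitor of E proteins (-5.18), Igfbp4, a binding protein of insulin-like growth factors (-5.09), and Ly6c1, a surface marker of memory CD8 T cells (-4.98). Cxcl9 was at 455, 444 and 446 RPKM in OT-I chronic libraries and at 3.49, 3.79 and 3.91 RPKM in OT-I acute libraries, with at most 0.117 RPKM in the vehicle libraries. Id3 and Igfbp4 were lower with OT-I cells in acute and higher in chronic libraries. The acute difference of Id3 did not pass the test with the T cell list held equal (-0.20, adjusted p = 0.143 by limma). Ly6c1 shares 57% of its words with another gene.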

How the results depend on the processing

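With the T cell identity list held equal, 9078 genes were higher (4289 at 2-fold or more) and 1245 lower (220 at 2-fold or more) in OT-I acute against vehicle acute libraries. The same scaling gave 9640 higher and 866 lower against polyclonal acute, 10416 higher and 592 lower in chronic libraries, and 1790 larger and 5424 smaller for the difference of differences. It reversed Cd3e (0.091) and Slc2a1 (0.17). With a common median 1221 genes were lower at 2-fold or more. The co-culture genes numbered 32, but 2 with limits of 0.2 and 5 RPKM, 113 with limits of 1 and 4 RPKM and 498 against 9 libraries. Leaving out each library gave 5460 to 5599 higher and 3690 to 3843 lower genes, 2311 to 2370 and 775 to 800 of them at 2-fold or more. It gave 5643 to 5770 higher and 3489 to 3709 lower against polyclonal acute, 5477 to 5623 and 3220 to 3342 in chronic libraries, and 3476 to 3712 and 3274 to 3495 for the difference of differences. The replicate block gave 5643 higher and 3804 lower genes. Same-numbered OT-I and vehicle acute libraries, which come from different experiments, had deviations that correlated at 0.0793, 0.265 and 0.226. Each library correlated best with its own number. The labels state no pairing, so the main fit did not pair the libraries, and whether the numbers pair them was not tested. Of 1696 values of 123 single-gene results under these alternatives, 1691 kept direction and call, 3 lost the call and 2 reversed. At 1.2-fold the simulated test called few genes, so small differences are not excluded by a missing call.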
